A study of Mus musculus with 36 samples.

Results

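The genes described here encode the initiation and elongation factors of translation, the proteins that load ribosomes onto mRNA and drive them along it. Members were chosen by symbol, as every gene beginning with Eif1 to Eif6, Eef1 or Eef2. Eif1a, Eif4enif1, Eif2s3y, the eIF2 kinases (Eif2ak) and pseudogenes were left out. This gave 56 genes among the 23845 symbols of the table. RNA had been sequenced from 36 libraries of mouse embryos, each a pool of 4 to 5 embryos, after amplification with SMART-seq v4, a kit for very small amounts of RNA. The groups were VP64 (n = 7), Ctrl (n = 6) and NI (n = 6) at the 8-cell stage (8C), and KRAB (n = 6), Ctrl (n = 7) and NI (n = 4) at the 2-cell stage (2C). The study's title names LINE-1, a retrotransposon family switched on after fertilisation. VP64 is the name of a transcriptional activator domain and KRAB that of a repressor domain. The design text speaks of injected embryos, but the labels spell out neither NI nor what the Ctrl embryos received. They name no strain, allele or embryo age in hours.

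Initiation begins when eIF4E binds the cap of an mRNA, eIF4G bridges it to the ribosome and the helicase eIF4A opens the leader. The small subunit arrives with eIF1, eIF1A, eIF3 and eIF2, which carries the initiator tRNA and must be recharged with GTP by eIF2B. eIF5 and eIF5B then let the large subunit join. In elongation, eEF1A brings each charged tRNA and eEF2 moves the ribosome forward by a codon. The mouse egg is stocked with stored mRNA and with egg forms of some factors, and the early embryo makes its protein from this store until its own genome is read.

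Together the members took a lowest, median and highest share of the counts of 2.20%, 2.73% and 3.03% in VP64 8C, 1.68%, 2.93% and 3.31% in Ctrl 8C, and 2.72%, 3.02% and 3.30% in NI 8C. In KRAB 2C the share was 0.898%, 1.08% and 1.37%, in Ctrl 2C 0.678%, 1.08% and 1.48%, and in the NI 2C libraries 0.925%, 1.25%, 0.751% and 1.53%. Every 8C library thus lay above every 2C library.

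Total counts per library ranged from 1043740 to 13583527. The stage labels were checked on markers. By summed level, the oocyte list alone separated the stages, unlike the 2-cell and 8-cell lists. The summed level of 10 oocyte genes lay between 44.7 and 778 CPM in 8C libraries and between 4791 and 45473 CPM in 2C libraries, where CPM stands for counts after scaling each library to a common size. That of 10 genes typical of the 2-cell embryo lay between 423 and 2442 CPM in 8C libraries and between 1023 and 4993 CPM in 2C libraries, so that these ranges overlapped. That of 10 genes typical of the 8-cell embryo lay between 1122 and 3954 CPM in 8C libraries and between 136 and 3647 CPM in 2C libraries. These ranges overlapped widely, with KRAB 2C replicate 1 at 3647 CPM and Ctrl 2C replicate 6 at 3358 CPM, above most 8C libraries. Single genes made up much of some sums. In the oocyte list Omt2a and Omt2b had medians of 5903 and 10158 CPM in KRAB 2C, where the sum had a median of 19662 CPM. Zp3 and Mos of that list overlapped between the stages, and the rest did not and were lower at 8C. Nanog of the 8-cell list reached 3595 CPM in KRAB 2C and 3297 CPM in Ctrl 2C. Sp110 of the 2-cell list went against its label, with medians of 784 to 1415 CPM in the 8C groups, against 523 to 602 CPM in the 2C groups. Tdgf1 and Gata6 alone of the 8-cell list did not overlap between stages and were higher at 8C. Dppa1 went the other way, with medians of 0 to 0.179 CPM at 8C, against 3.02 to 9.13 CPM at 2C. Fgf4 and Nanog had lower medians at 8C in NI (5.12 and 559 CPM, against 18.5 and 1337 CPM). In Ctrl they had higher ones (6.70 and 875 CPM, against 1.99 and 198 CPM). The rest of that list had higher medians in each 8C group than in each 2C group. Of the 2-cell list, Zscan4d, Zscan4f, Tcstv1, Tcstv3, Zfp352 and Obox3 did not overlap and were lower at 8C, and the rest overlapped. The 14 cumulus and granulosa markers summed to 344 CPM in VP64 8C replicate 6 and to 358 and 274 CPM in KRAB 2C replicates 6 and 2, and to at most 143 CPM elsewhere. Between 3 and 9 of them were at 0 in a whole group. Their part in the results was not tested. Ctrl 8C replicate 6, VP64 8C replicate 7 and Ctrl 2C replicate 6 stood apart in genes detected or in scaling. Without these 3, the stage comparison given next had 37 members higher and 6 lower in NI and 36 higher and 4 lower in Ctrl. Nothing in the labels says that the pools came from separate cultures or animals, so p-values measure the spread between pools, which may be technical.

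**Figure D1:**
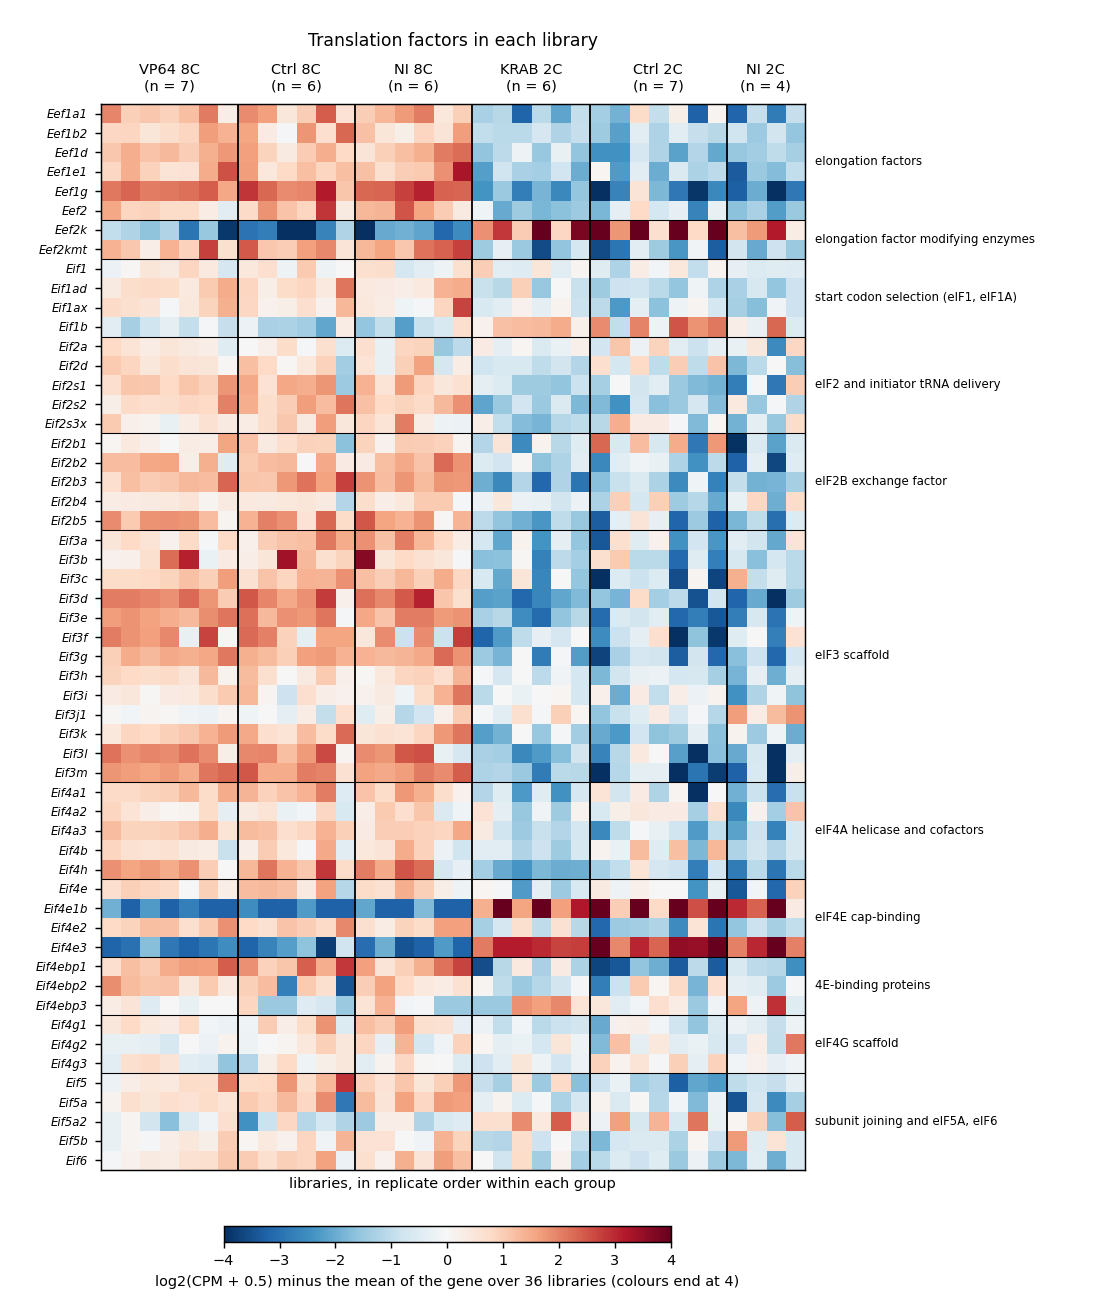
Each column is 1 library and each row 1 of the 55 members that passed the filter on low counts, grouped by role. The colour is log2(CPM + 0.5) minus the gene's mean over 36 libraries. Most genes are red in the 8C libraries, while Eif4e1b, Eif4e3 and Eef2k are blue there, and Eif1b is blue in most of them.

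The first question was how these genes differed between the stages. Most were higher at 8C, across elongation factors, eIF3 and eIF2B. A few fell, among them the egg cap-binding gene Eif4e1b, its relative Eif4e3 and the elongation factor kinase Eef2k. All adjusted p-values for single genes are from edgeR's quasi-likelihood test with Benjamini-Hochberg adjustment over all genes tested, called at 0.05. Of 55 members tested in NI, 35 were higher and 6 lower at 8C, where 49.9% of all 13158 genes were called, 18.5% higher and 31.4% lower. Of 55 tested in Ctrl, 35 were higher and 5 lower, where 61.5% of all genes were called, 22.5% higher and 39% lower. The median log2 fold change of the members was 1.83 in NI and 1.93 in Ctrl, against -0.47 and -0.51 over all genes tested. With the size factors of DESeq2 the median of all genes moved to -0.72 and -0.70, and the members' median lay 2.32 and 2.41 above it, against 2.31 and 2.44 above it with TMM. The filter left out Eef1a2, a form known from muscle and neurons, which was at 0 in all libraries but NI 2C replicate 2, at 0.240 CPM.

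Between the stages, 31 members were higher in both NI and Ctrl and 5 were lower in both, namely Eef2k, Eif1b, Eif4e1b, Eif4e3 and Eif5a2. Taken singly, 18.5% of all genes were called higher and 31.4% lower in NI, and 22.5% and 39% in Ctrl. The share of all genes called alike in both was not computed, so these joint counts have no background of their own. Eif2b1, Eif2d, Eif3i and Eif4b passed as higher in NI alone, Eif2s1, Eif3c, Eif3f and Eif5b in Ctrl alone, and Eif3j1 passed as lower in NI alone. These are differences in call, and the test of the difference is given further on. In NI, all 8C libraries lay above all 2C libraries for 29 members and below them for 3, against 12.8% and 20.7% of all genes. In Ctrl this held for 22 and 3 members, against 7.11% and 17.3% of all genes. More than 20% of the 31-base words of 13 members also occur in other genes (Eef1a1, Eef1g, Eef2, Eef2kmt, Eif1, Eif2s3x, Eif3d, Eif3h, Eif3j1, Eif3m, Eif4a1, Eif4a3 and Eif4ebp3), so their counts may be divided among copies and are less certain. In bulk RNA scaled to the library total, fewer cells of a type and less RNA per cell cannot be told apart.

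**Figure D2:**
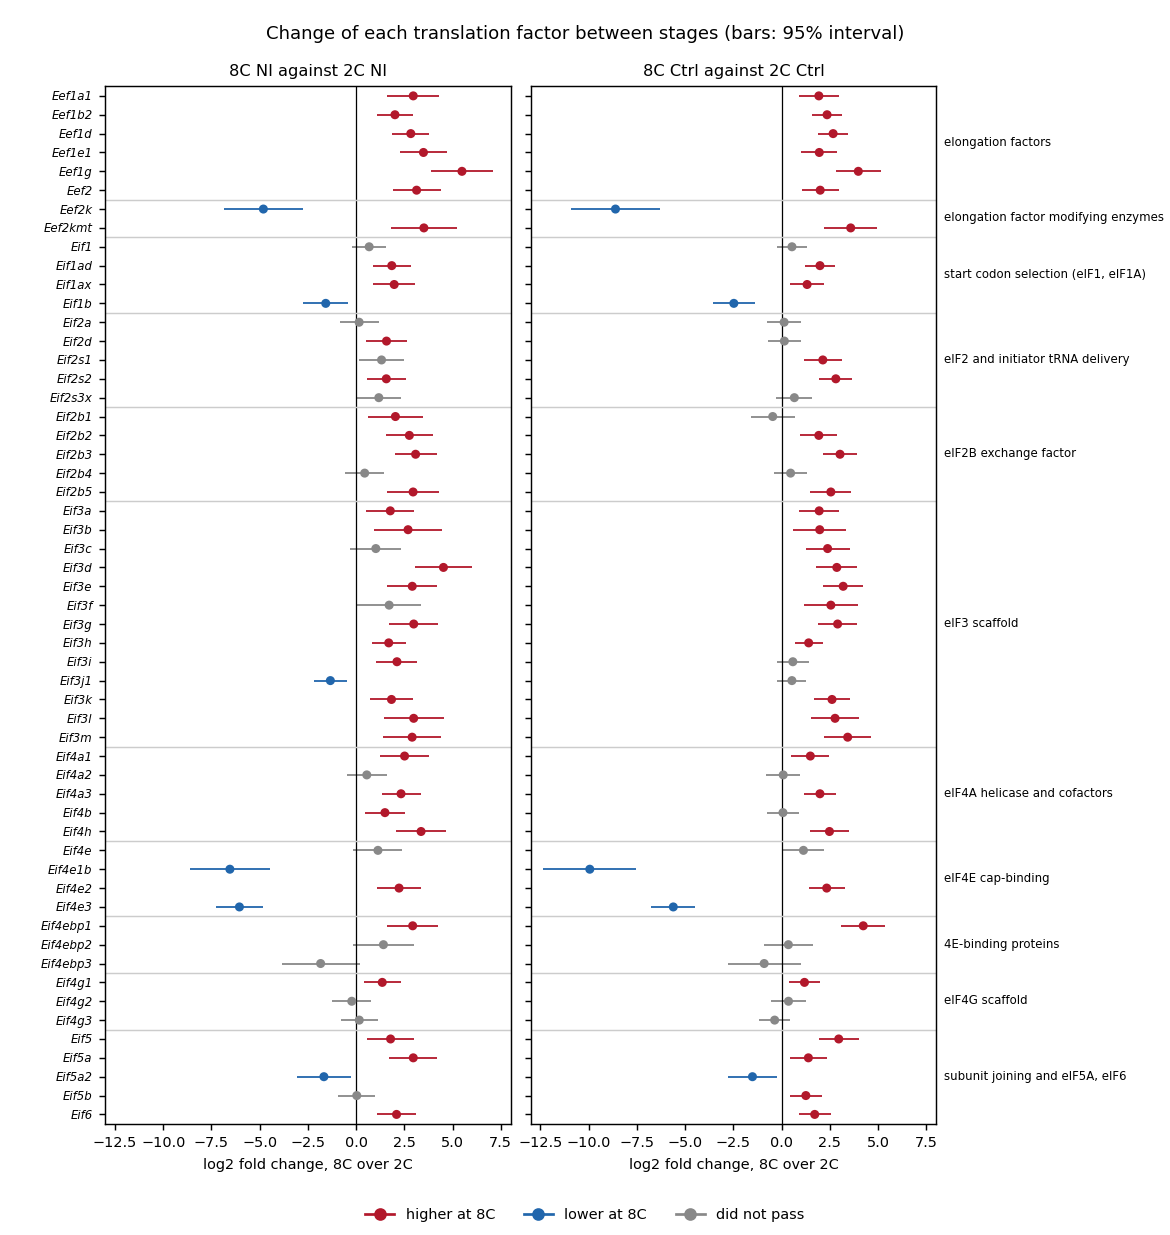
Log2 fold change of 8C over 2C for each member, with its 95% interval, in NI on the left and Ctrl on the right. Red genes passed as higher at 8C (35 in each), blue as lower (6 in NI and 5 in Ctrl), and grey did not pass.

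The 6 genes grouped here by symbol as elongation factors, Eef1e1 among them, were higher at 8C in both NI and Ctrl. Of all genes, 18.5% were called higher in NI and 22.5% in Ctrl. Eef1a1 (chr9:78478449-78489151), which hands charged tRNA to the ribosome, had a lowest, median and highest level of 874, 1462 and 2727 CPM in NI 8C, against 72.6, 342, 94.2 and 341 CPM in the 4 NI 2C libraries. It had 899.8, 1667 and 3492 CPM in Ctrl 8C, against 69.7, 339 and 1095 CPM in Ctrl 2C. The groups were apart in NI, and in Ctrl the highest 2C library lay above the lowest 8C ones. The log2 fold changes were 2.96 ± 0.67 (SE; adjusted p = 0.000393) in NI and 1.93 ± 0.52 (adjusted p = 0.00151) in Ctrl.

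Eef1g (chr19:8967041-8978479), a subunit of the complex that recharges eEF1A with GTP, rose most among all members in NI. It had 749, 778 and 1312 CPM in NI 8C, against 15.4, 38.1, 5.03 and 20.8 CPM in NI 2C, and 329.8, 673 and 1385 CPM in Ctrl 8C, against 7.42, 23.6 and 221 CPM in Ctrl 2C. The stages did not overlap in either. The log2 fold change was 5.48 ± 0.79 (adjusted p = 6.76e-07), or 44.7-fold, in NI. In Ctrl it was 3.97 ± 0.58 (adjusted p = 2.98e-07), and 5.06 without Ctrl 2C replicate 3, the highest of that group at 221 CPM. Its partners Eef1d and Eef1b2 rose by 2.83 and 2.01 in NI and by 2.67 and 2.35 in Ctrl on the log2 scale. Eef1e1, a part of the multi-tRNA synthetase complex despite its symbol, rose by 3.49 and 1.95.

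Eef2 and the kinase that inhibits it, Eef2k, moved in opposite directions. Eef2 (chr10:81176631-81182498) had 335, 663 and 1474 CPM in NI 8C, against 83.7, 106, 54.6 and 92.2 CPM in NI 2C, and 334, 522 and 1901 CPM in Ctrl 8C, against 40.2, 201 and 456 CPM in Ctrl 2C. It rose by 3.13 ± 0.61 in NI (adjusted p = 6.89e-05) and 2.00 ± 0.47 in Ctrl (adjusted p = 0.000381), with no overlap in NI and some in Ctrl. Eef2k (chr7:120842831-120907450) had 0.154, 1.85 and 2.58 CPM in NI 8C, against 26.5, 36.9, 104 and 13.7 CPM in NI 2C, and 0, 1.11 and 4.57 CPM in Ctrl 8C, against 17.5, 283 and 1087 CPM in Ctrl 2C. VP64 8C gave 0.300, 3.52 and 5.42 CPM and KRAB 2C 20.2, 61.6 and 228 CPM. No 8C library of any treatment reached any 2C library. The fall was -4.81 ± 1.01 in NI (adjusted p = 0.000159), or -4.002 without NI 2C replicate 3. In Ctrl it was -8.61 ± 1.14 (adjusted p = 5.37e-08), or -9.43 without Ctrl 8C replicate 6, with 20 counts in all Ctrl 8C libraries together. Ctrl 2C replicates 1, 3, 5 and 7 had 283, 823, 933 and 1087 CPM, and replicates 2, 4 and 6 had 39.3, 17.5 and 19.6 CPM. Eef2kmt, which methylates eEF2, rose by 3.51 and 3.58.

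The promoters of Eef2 and Eef2k share a short motif, CACGTG, known as an E-box, and are shown because the genes sit on the same step and moved apart. The 120 bases before each RefSeq start (GRCm38.p6, 5′ to 3′) are given, with the motif in capitals. It begins 43 bases before the start in Eef2 (chr10:81176511-81176630, plus strand) and 31 before it in Eef2k (chr7:120842711-120842830, plus strand).
Eef2: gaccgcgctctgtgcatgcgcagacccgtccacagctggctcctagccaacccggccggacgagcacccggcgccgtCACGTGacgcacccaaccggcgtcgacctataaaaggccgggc
Eef2k: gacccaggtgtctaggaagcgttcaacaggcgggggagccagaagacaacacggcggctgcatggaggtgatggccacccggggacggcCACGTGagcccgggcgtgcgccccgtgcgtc
Both strands were searched, which for this palindrome is the same search. Of the 44 members with a RefSeq promoter, 11 (25%) held CACGTG within 250 bases before the start, against 6.86% of 27025 genes. They were Eef2, Eef2k, Eif1b, Eif3f, Eif3k, Eif4a1, Eif4e, Eif4g1, Eif4h, Eif5a and Eif5a2, so the motif stood before genes that fell and genes that rose. A match describes these letters only.

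Among the genes for start codon selection, Eif1b fell and its near relative Eif1 did not pass. Both help the small subunit to reject wrong start codons. Eif1b (chr9:120492232-120495330) had 15.7, 38.6 and 117 CPM in NI 8C, against 88.6, 60.0, 363 and 50.2 CPM in NI 2C, and 16.96, 30.3 and 89.7 CPM in Ctrl 8C, against 36.9, 272 and 420.01 CPM in Ctrl 2C. The stages overlapped in both, and NI 2C replicate 3 stood above the other NI libraries. The change was -2.48 ± 0.54 (adjusted p = 0.000153) in Ctrl and -1.58 ± 0.58 (adjusted p = 0.0215) in NI. The call in NI was lost without NI 2C replicate 3 (-0.50, adjusted p = 0.504), without NI 8C replicate 3 (-1.29, adjusted p = 0.0673) and when the NI libraries alone were fitted (-1.44, adjusted p = 0.07003). Eif1 had 0.68 ± 0.44 in NI (adjusted p = 0.203) and 0.54 ± 0.37 in Ctrl (adjusted p = 0.213). Per kilobase of exon, Eif1b made up a median 12.4%, 8.00% and 11.2% of the summed eIF1 level in VP64, Ctrl and NI at 8C, against 35.6%, 48.4% and 24.2% in KRAB, Ctrl and NI at 2C. Eif1ax, the eIF1A gene of the X chromosome, rose by 1.97 in NI, or 1.32 without NI 8C replicate 6, and by 1.32 in Ctrl. Eif1ad, whose protein shares a fold with eIF1A, rose by 1.85 and 1.99.

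Of the 3 subunits of eIF2, the beta subunit gene Eif2s2 rose in both treatments. It had 2025, 2467 and 4261 CPM in NI 8C, against 1558, 422, 1165 and 519.96 CPM in NI 2C, and 1964, 3040.1 and 5327 CPM in Ctrl 8C, against 224, 373 and 759.7 CPM in Ctrl 2C, and the stages did not overlap in either. It changed by 1.56 ± 0.50 in NI (adjusted p = 0.00896; 1.2003 and 0.0574 without NI 2C replicate 2) and by 2.81 ± 0.43 in Ctrl (adjusted p = 6.87e-07). The alpha subunit gene Eif2s1, whose protein is the target of the stress kinases, rose by 2.13 ± 0.50 in Ctrl (adjusted p = 0.000327), and its 1.32 ± 0.59 in NI did not pass (adjusted p = 0.059). Eif2s1 had 414, 506 and 981 CPM in NI 8C, against 44.3, 292, 40.98 and 595 CPM in NI 2C, and the value was 2.15 without NI 2C replicate 4 and 1.48 without NI 8C replicate 6, and passed (adjusted p = 0.00595 and 0.0439). For the gamma subunit gene Eif2s3x the values were 1.17 ± 0.56 and 0.66 ± 0.46, and it did not pass in either. In NI it passed without NI 2C replicate 4 (1.77, adjusted p = 0.0175) or NI 8C replicate 6 (1.42, adjusted p = 0.0396). Of the alternative initiator tRNA factors, Eif2d was called in NI only, at 1.57 ± 0.52 (adjusted p = 0.0111), and lost the call without NI 8C replicate 4 (1.11) or NI 2C replicate 4 (1.29). In Ctrl 2C it had 80.4, 88.1, 99.4 and 111 CPM in replicates 1, 3, 5 and 7. Replicates 2, 4 and 6 had 30.3, 24.3 and 24.5 CPM. Eif2a had 0.15 and 0.13 and did not pass.

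The eIF2B genes rose with the exception of Eif2b4 and, in Ctrl, of Eif2b1. The largest called values were those of Eif2b3, the gamma subunit, at 3.08 ± 0.54 in NI (adjusted p = 1.5e-05) and 3.03 ± 0.43 in Ctrl (adjusted p = 2.16e-07). It had 264, 375 and 393 CPM in NI 8C, against 57.8, 29.98, 30.2 and 44.1 CPM in NI 2C, and 237, 357 and 748 CPM in Ctrl 8C, against 16.7, 46.5 and 98.1 CPM in Ctrl 2C. The stages did not overlap in either. Eif2b5, the catalytic epsilon subunit, rose by 2.95 and 2.55, and Eif2b2, the beta subunit, by 2.76 and 1.93. Eif2b1 (chr5:124570213-124579131), the alpha subunit, had 343, 588 and 644 CPM in NI 8C, against 19.7, 211, 70.5 and 209 CPM in NI 2C, a change of 2.03 ± 0.70 (adjusted p = 0.0151) with no overlap. The call was lost without NI 2C replicate 1 (1.67) or replicate 3 (1.83). In Ctrl it had 100.02, 546 and 698 CPM at 8C, against 43.2, 747 and 1535 CPM at 2C, a change of -0.46 ± 0.56 (adjusted p = 0.488). The Ctrl 2C libraries were spread widely here. Replicates 1, 3, 5 and 7 had 1535, 747, 876 and 1041 CPM, and replicates 2, 4 and 6 had 205, 203 and 43.2 CPM. Eif2b4, the delta subunit, had 0.44 and 0.47 and did not pass.

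eIF3, the largest initiation factor, holds the small subunit and the mRNA-bound factors together. Of its 13 genes, 10 rose and Eif3j1 fell in NI, and 11 rose and none fell in Ctrl. Of all genes, 18.5% were called higher and 31.4% lower in NI, and 22.5% and 39% in Ctrl. Eif3d (chr15:77958998-77970813), whose protein can itself touch the cap in human cells, had 126, 343 and 689 CPM in NI 8C, against 8.62, 19.7, 1.44 and 30.2 CPM in NI 2C, and 93.7, 301 and 570.02 CPM in Ctrl 8C, against 6.87, 31.6 and 137 CPM in Ctrl 2C. The stages did not overlap in NI, and in Ctrl the highest 2C library lay above the lowest 8C library, replicate 6. The changes were 4.52 ± 0.72 (adjusted p = 3.37e-06) and 2.86 ± 0.53 (adjusted p = 1.59e-05). An opposite-strand gene, Gm17638, covers 43.3% of its exon bases, and as no source states that counting used strand, their reads may be mixed. Eif3e had a median of 462 CPM in NI 8C and 467 CPM in Ctrl 8C and rose by 2.91 ± 0.64 (adjusted p = 0.000294) and 3.19 ± 0.52 (adjusted p = 2.24e-06). Eif3m rose by 2.90 ± 0.74 (3.65 without NI 2C replicate 4) and 3.42 ± 0.60, Eif3g by 2.98 ± 0.63 and 2.90 ± 0.50, and Eif3l by 2.98 ± 0.77 and 2.77 ± 0.61. Eif3k, a small outer subunit, rose by 1.83 and 2.61. Of the core scaffold subunits, Eif3a was called at 1.77 in NI and 1.95 in Ctrl, and lost the call in NI without NI 2C replicate 2 (1.57) or replicate 3 (1.47). Eif3b was called at 2.69 in NI and 1.97 in Ctrl, but 1 library in each group at 8C decided this. NI 8C replicate 1 had 781 CPM and Ctrl 8C replicate 3 had 635 CPM. Without the first the value in NI was 1.35 (adjusted p = 0.137), and without the second that in Ctrl was 1.09 (adjusted p = 0.144). The outer subunit Eif3h rose by 1.69 and 1.40. Eif3c and Eif3f rose by 2.38 and 2.55 in Ctrl and had 1.02 and 1.71 in NI, where they did not pass. Without NI 2C replicate 1 the value of Eif3c in NI was 1.96, and without NI 8C replicate 3 that of Eif3f was 2.01, and these passed (adjusted p = 0.0255 and 0.0439). Eif3i, one of the core subunits, rose by 2.11 in NI and had 0.58 in Ctrl, where it did not pass.

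Eif3j1 (chr2:122028546-122056598), which encodes a loosely bound subunit, was the one eIF3 gene with the other direction in NI. It had 117, 241 and 521 CPM in NI 8C, against 822, 318, 619 and 898 CPM in NI 2C, a change of -1.34 ± 0.43 (adjusted p = 0.00904), and the call was lost when the NI libraries alone were fitted (-1.19, adjusted p = 0.0775). In Ctrl it had 135, 245 and 417 CPM at 8C, against 87.6, 164 and 326 CPM at 2C, a change of 0.53 ± 0.37 (adjusted p = 0.214). The stages overlapped in both. Other genes contain 53.6% of its 31-base words, so reads may be divided among copies.

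Of the helicase genes of the eIF4A family, Eif4a1 and Eif4a3 passed as higher and Eif4a2 did not. This is a difference in call. The log2 ratio of Eif4a2 to Eif4a1, described further on, did not pass between stages (exact permutation, adjusted p = 0.135 in NI and 0.0684 in Ctrl). Eif4a1 had 1044, 1808 and 3098 CPM in NI 8C, against 248, 511, 112 and 505 CPM in NI 2C, and rose by 2.51 ± 0.62 (adjusted p = 0.00108), with no overlap. In Ctrl it had 656, 2227 and 3837 CPM at 8C, against 58.9, 944 and 1350.1 CPM at 2C, and rose by 1.49 ± 0.49 (adjusted p = 0.00836), with overlap. Fitted on the Ctrl libraries alone, the Ctrl calls of Eif4a1, Eif4g1 and Eif5a were lost (1.39, 1.10 and 1.29, adjusted p = 0.0621, 0.0662 and 0.0797). Eif4a2 had 0.55 ± 0.52 in NI (1.24 without NI 2C replicate 4) and 0.08 ± 0.44 in Ctrl and did not pass. Eif4a3, which marks spliced junctions rather than unwinding leaders, rose by 2.33 ± 0.50 and 1.99 ± 0.40. Of the helicase cofactors, Eif4h rose by 3.36 ± 0.65 (adjusted p = 5.26e-05) and 2.48 ± 0.50 (adjusted p = 5.15e-05). Eif4b rose by 1.49 ± 0.51 in NI (adjusted p = 0.0151) and had 0.07 ± 0.42 in Ctrl, where it did not pass. In Ctrl 2C it had 137, 300, 290 and 313 CPM in replicates 1, 3, 5 and 7. Replicates 2, 4 and 6 had 105, 89.7 and 35.3 CPM, and the part of this spread was not tested.

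The cap-binding family changed its make-up. Eif4e1b (chr13:54783998-54788459) encodes the egg form of eIF4E. It had 0, 0 and 0.739 CPM in VP64 8C, 0, 0 and 0.480 CPM in Ctrl 8C and 0, 0 and 0.886 CPM in NI 8C, with no count in 4 libraries of each group. It had 12.2, 28.3 and 95.5 CPM in KRAB 2C and 36.3, 23.5, 89.2 and 5.45 CPM in NI 2C. The Ctrl 2C libraries held 237, 235, 309.7 and 330.03 CPM in replicates 1, 3, 5 and 7 and 8.85, 7.69 and 27.5 CPM in replicates 2, 4 and 6. All 2C libraries lay above all 8C libraries, as did the summed oocyte markers, whose part in this was not tested. In NI the groups summed to 17 counts at 8C and 314 at 2C, with a fitted change of -6.54 ± 1.03 (adjusted p = 2.84e-06). Without NI 8C replicate 4 it was -7.53, and without NI 2C replicate 3 it was -5.72. In Ctrl the fitted change was -9.94 (adjusted p = 7.67e-09), and -10.77 without Ctrl 8C replicate 4. The sums in Ctrl were 3 and 8045 counts, and Ctrl 2C replicates 3, 5 and 7 gave 1765, 2288 and 3028 of the latter. Pooled in this way, the level was 1476-fold lower at 8C, with a 95% counting interval of 505 to 7158. Of the 3 counts, 2 were in Ctrl 8C replicate 4. Without it the pooled level was 3603-fold lower, with an interval of 647 to 142339. Intervals of this kind cover counting error only, as the reads carry no molecular identifiers.

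Eif4e3 (chr6:99625135-99666771), a relative that binds the cap in a different way, fell as well. It had 2.18, 2.91 and 7.09 CPM in NI 8C, against 119, 239, 513 and 119 CPM in NI 2C, and 1.70, 5.08 and 16.6 CPM in Ctrl 8C, against 112, 332 and 549 CPM in Ctrl 2C. VP64 8C had 2.71, 3.52 and 8.56 CPM and KRAB 2C 125, 219.9 and 262 CPM. Every 8C library was below every 2C library. The change was -6.05 ± 0.60 in NI (adjusted p = 9.92e-10), or 66.2-fold lower, and -5.42 without NI 2C replicate 3. In Ctrl it was -5.61 ± 0.56 (adjusted p = 2.83e-10), or 49.0-fold lower.

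Eif4e (chr3:138526179-138559696), the general cap-binding gene, had 930.5, 1702 and 2904 CPM in NI 8C, against 102, 982, 120.1 and 2012 CPM in NI 2C, and 479.5, 2457 and 3241 CPM in Ctrl 8C, against 202, 1054 and 1369 CPM in Ctrl 2C. The stages overlapped in both, and the change of 1.13 ± 0.63 in NI (adjusted p = 0.13) and 1.13 ± 0.52 in Ctrl (adjusted p = 0.0581) did not pass. In the NI 2C libraries Eif4e was lowest in replicates 1 and 3, where the oocyte markers summed to 20737 and 45473 CPM, and highest in replicates 2 and 4, where they summed to 8409 and 5007 CPM. The part of this in the result was not tested. Without NI 2C replicate 4 the change in NI was 2.02 and passed (adjusted p = 0.0162). Without Ctrl 8C replicate 6 or replicate 4 that in Ctrl was 1.34 or 1.36 and passed (adjusted p = 0.0256 and 0.0331). Eif4e2 (chr1:87213914-87240488), which binds the cap without recruiting eIF4G, had 135, 193 and 342 CPM in NI 8C, against 36.9, 60.0, 43.1 and 55.4 CPM in NI 2C. It had 166, 205 and 416 CPM in Ctrl 8C, against 11.98, 39.4 and 159 CPM in Ctrl 2C. It rose by 2.22 ± 0.57 (adjusted p = 0.00152) in NI and by 2.34 ± 0.47 (adjusted p = 4.97e-05) in Ctrl, or by 3.03 without Ctrl 2C replicate 6. Its stages did not overlap in either.

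**Figure D3:**
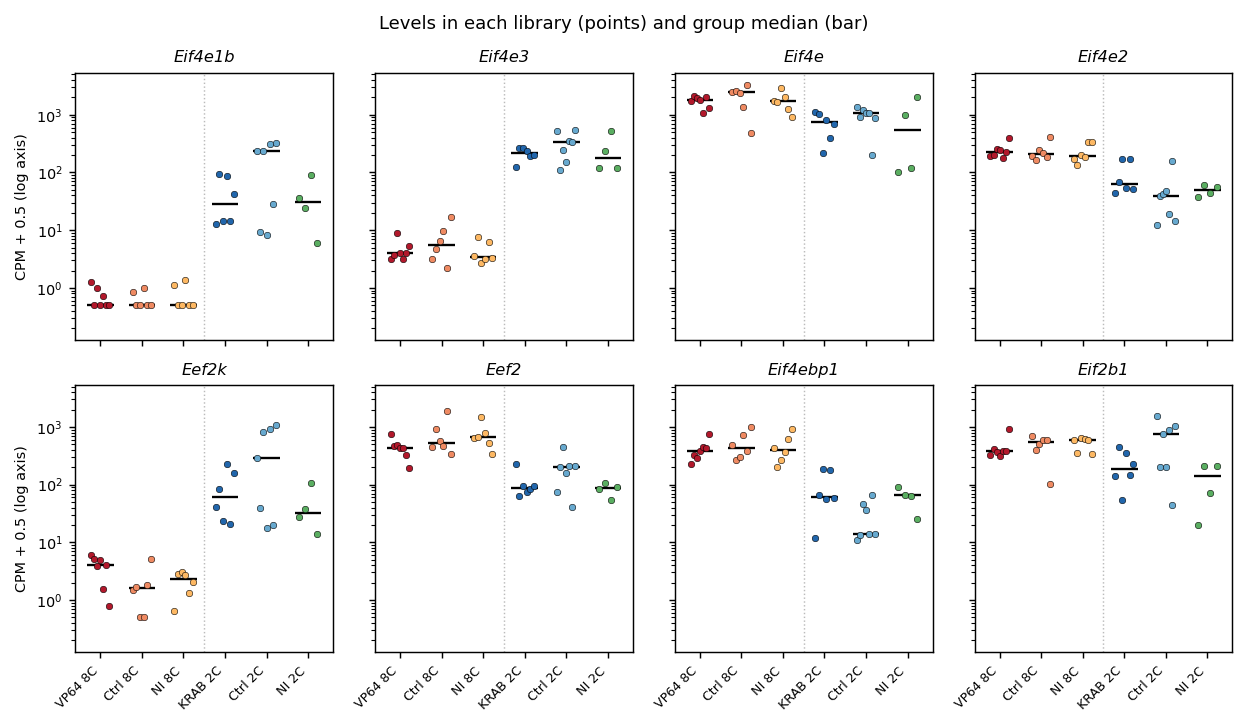
CPM + 0.5 on a log axis for 8 members, with 1 point per library and a bar at the group median. Eif4e1b, Eif4e3 and Eef2k are low in all 3 groups at 8C, Eif4e overlaps between stages, and Eif4e1b, Eef2k and Eif2b1 are widely spread in Ctrl 2C.

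To compare the 4 genes with each other, levels were divided by exon length in kilobases and expressed as shares of their sum within a library. The lowest, median and highest share of Eif4e was 79.8, 89.7 and 92.4% in VP64 8C, 56.3, 92.99 and 95.5% in Ctrl 8C and 76.8, 92.6 and 94.5% in NI 8C. At 2C it was 21.5, 50.8 and 75.3% in KRAB, 16.9, 41.8 and 74.3% in Ctrl and 7.42, 39.5 and 85.4% in NI. Eif4e3 held a median of 0.426%, 0.455% and 0.464% in VP64, Ctrl and NI at 8C, against 35.1%, 30.3% and 44.9% in KRAB, Ctrl and NI at 2C. For Eif4e1b the highest 8C share was 0.106%, and the 2C medians were 6.07%, 19.3% and 9.22% in KRAB, Ctrl and NI. In 6 of the 17 libraries at 2C, 2 in each group, Eif4e3 held more of the sum than Eif4e.

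**Figure D4:**
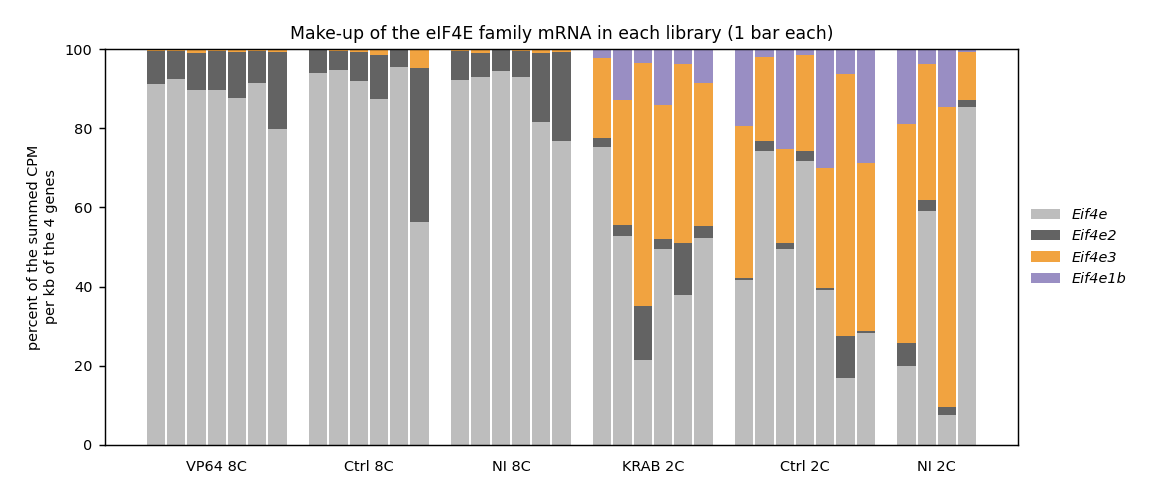
Each bar is 1 library and shows how the CPM per kilobase of Eif4e, Eif4e2, Eif4e3 and Eif4e1b divide their sum, in percent. Eif4e (light grey) takes a median of 89.7% to 92.99% in the 8C groups and of 39.5% to 50.8% in the 2C groups.

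As a measure taken within each library, the log2 ratio of 1 gene to the other was computed for each paralog pair (0.5 CPM added to both). Stage differences were tested by exact permutation, two-sided, with adjustment over 88 tests of 11 pairs. In this test 11 of the 88 passed, 5 in NI and 6 in Ctrl between the stages and 0 within a stage. Eif4e1b had no count in 4 of the 6 libraries of NI 8C and of Ctrl 8C, where its ratio is set by the added 0.5 CPM and by Eif4e, so that the size of its difference is not a measured fold. With this limit, the ratio of Eif4e1b to Eif4e averaged -11.25 ± 0.75 in NI 8C and -3.92 ± 3.67 in NI 2C (SD, n = 6 and 4; exact permutation, adjusted p = 0.0419). In Ctrl it averaged -11.53 ± 1.12 at 8C and -3.52 ± 2.31 at 2C (n = 6 and 7; exact permutation, adjusted p = 0.0256). For Eif4e3 over Eif4e the difference between stages was -7.72 in NI and -6.71 in Ctrl (exact permutation, adjusted p = 0.0419 and 0.0256). Eif1b over Eif1 passed in Ctrl (-2.86, with -1.92 in NI). Eef1a2 over Eef1a1 passed in both, but with Eef1a2 nearly always at 0 this ratio follows Eef1a1. Eif4a2 over Eif4a1 (-1.61 and -1.64) and Eif4g2 over Eif4g1 (-1.11 and -0.63) did not pass. Eif4e2 over Eif4e differed by 0.09 and 1.67 and did not pass (exact permutation, adjusted p = 0.979 and 0.482). The smallest p the splits allow is 0.00476 in NI and 0.000583 in Ctrl. Without 1 NI 8C or NI 2C library the smallest possible p in NI is 0.00794 or 0.0119, too large to pass the adjustment with the 3 pairs that then passed, so these counts say nothing on stability. Without Ctrl 2C replicate 5 or 7, 0 of the 88 passed, and without another Ctrl library 9 to 13 did. The 2 genes of each pair shared no 31-base word.

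The promoter of Eif4e held CACGTG at 228 and 64 bases before its start, and the 120-base stretch with the nearer copy in capitals (chr3:138527148-138527267, plus strand, RefSeq GRCm38.p6) is shown because Eif4e is the paralog against which the other forms are set. Eif4e1b and Eif4e3 had no promoter in the table.
Eif4e: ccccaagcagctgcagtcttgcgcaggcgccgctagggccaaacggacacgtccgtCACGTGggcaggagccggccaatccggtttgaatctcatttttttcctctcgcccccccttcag

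The 4E-binding proteins hold eIF4E away from eIF4G until the kinase mTOR releases them. Eif4ebp1 (chr8:27260329-27276674) had 198, 405 and 903 CPM in NI 8C, against 91.1, 66.7, 63.3 and 24.9 CPM in NI 2C, and 263, 436 and 992 CPM in Ctrl 8C, against 10.6, 13.4 and 66.7 CPM in Ctrl 2C. The stages did not overlap in either. It rose by 2.93 ± 0.66 (adjusted p = 0.000391) in NI and by 4.23 ± 0.56 (adjusted p = 5.6e-08) in Ctrl, the largest rise of any member there. Eif4ebp2 had 1.41 ± 0.77 and 0.35 ± 0.62 and Eif4ebp3 -1.84 ± 1.004 and -0.90 ± 0.93, and neither passed. Without Ctrl 8C replicate 1 the value of Eif4ebp3 in Ctrl was -2.08, and without NI 2C replicate 3 that in NI was -0.61. Their median levels were at most 10.9 and 2.73 CPM in any group. The log2 ratio of Eif4ebp2 to Eif4ebp1 differed between 8C and 2C by -4.33 in Ctrl (exact permutation, adjusted p = 0.0419), with -1.51 in NI (adjusted p = 0.419). For Eif4ebp3 the values were -5.05 in Ctrl (exact permutation, adjusted p = 0.0342) and -4.04 in NI (adjusted p = 0.12), though 66.4% of its words occur in another gene. Eif4ebp3 had no count in Ctrl 8C replicates 2, 3 and 6 or in NI 8C replicates 5 and 6. Eif4ebp2 had 0 and 0.306 CPM in Ctrl 8C replicates 6 and 3. There these ratios are largely set by the added 0.5 CPM and by Eif4ebp1, so the size of their differences is not a measured fold.

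Of the scaffolds that bridge cap and ribosome, Eif4g1 rose by 1.35 ± 0.48 in NI (adjusted p = 0.0169) and 1.18 ± 0.39 in Ctrl (adjusted p = 0.00882). It had 104, 238 and 426 CPM in NI 8C, against 112, 99.1, 69.0 and 116 CPM in NI 2C, with overlap, and the call in NI was lost without NI 2C replicate 2 (1.25) or replicate 3 (1.21). Eif4g2, whose protein lacks the eIF4E-binding part, had -0.23 ± 0.51 and 0.36 ± 0.44, and Eif4g3 had 0.16 ± 0.47 and -0.36 ± 0.40. Neither passed, and Eif4g2 in NI was 0.74 without NI 2C replicate 4. The log2 ratio of Eif4g3 to Eif4g1 differed between 8C and 2C by -1.15 in NI (exact permutation, adjusted p = 0.0419), with -1.55 in Ctrl (adjusted p = 0.135). Per kilobase, Eif4g2 held a median of 42.996%, 52.1% and 47.3% of the eIF4G sum in VP64, Ctrl and NI at 8C, against 62.9%, 59.4% and 60.7% in KRAB, Ctrl and NI at 2C.

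Of the later factors, Eif5, which triggers GTP hydrolysis on eIF2 at the start codon, had 2106, 2881 and 4934 CPM in NI 8C, against 742, 856, 789 and 1143 CPM in NI 2C, and 2411, 3191 and 11159 CPM in Ctrl 8C, against 156, 582 and 1231 CPM in Ctrl 2C. It rose by 1.78 ± 0.61 (adjusted p = 0.0141) and 2.96 ± 0.52 (adjusted p = 7.31e-06), with no overlap. Eif6, which keeps the large subunit apart, rose by 2.09 ± 0.50 and 1.71 ± 0.41. Eif5b, the joining factor, rose by 1.26 ± 0.41 in Ctrl (adjusted p = 0.00848) and had 0.03 ± 0.48 in NI (adjusted p = 0.963), or 0.73 without NI 2C replicate 1.

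The eIF5A genes split by paralog. eIF5A carries the modified residue hypusine and helps ribosomes past stalling stretches. Eif5a (chr11:69916714-69921958) had the highest median per kilobase of all members in each group but NI 2C, where Eif1 was higher, at 971, 1255 and 1773 CPM per kilobase in VP64, Ctrl and NI at 8C, against 472, 549 and 185 in KRAB, Ctrl and NI at 2C. In CPM it had 2216, 4213 and 5010.02 CPM in NI 8C, against 142, 964, 264 and 618 CPM in NI 2C, and 212, 2982 and 5768 CPM in Ctrl 8C, against 453, 1305 and 1719 CPM in Ctrl 2C. NI was apart between stages, and in Ctrl 8C the library at 212 CPM was replicate 6. The rise was 2.96 ± 0.62 (adjusted p = 0.000149) in NI and 1.39 ± 0.47 (adjusted p = 0.0105) in Ctrl.

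Eif5a2 (chr3:28781276-28798846) was rare, with 1.84, 3.796 and 7.14 CPM in NI 8C, against 6.15, 11.5, 1.44 and 33.5 CPM in NI 2C, and 0.677, 2.70 and 10.7 CPM in Ctrl 8C, against 3.59, 4.85 and 27.5 CPM in Ctrl 2C. The stages overlapped in both. It passed as lower, at -1.67 ± 0.70 in NI (adjusted p = 0.0441) and -1.51 ± 0.63 in Ctrl (adjusted p = 0.0363). The call in NI was lost without NI 2C replicate 4 (-0.77, adjusted p = 0.401) and without each of NI 8C replicates 1, 4, 5 and 6. That in Ctrl was lost without each of Ctrl 8C replicates 1, 2, 4, 5 and 6 and Ctrl 2C replicates 2 and 6, and its value was -2.22 without Ctrl 8C replicate 3. Without the 3 libraries that stood apart it was -0.97 (adjusted p = 0.192). Both calls were also lost when only the groups compared were fitted (-1.50, adjusted p = 0.0808, in NI and -1.63, adjusted p = 0.0658, in Ctrl). Its log2 ratio to Eif5a differed between 8C and 2C by -4.22 in NI (exact permutation, adjusted p = 0.0419), with -2.43 in Ctrl (adjusted p = 0.208). The promoters of the pair are shown since both hold CACGTG, in capitals (both RefSeq GRCm38.p6). In Eif5a it begins 74 bases before the start shown (chr11:69921387-69921506, minus strand). In Eif5a2 it begins at 142 and 117 bases (chr3:28781135-28781254, plus strand). Other RefSeq starts of Eif5a, not shown, had the motif 185 and 178 bases before them. The one at 178 is a separate copy (chr11:69920689-69920808).
Eif5a: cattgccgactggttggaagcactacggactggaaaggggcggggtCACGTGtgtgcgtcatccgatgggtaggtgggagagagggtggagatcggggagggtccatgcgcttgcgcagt
Eif5a2: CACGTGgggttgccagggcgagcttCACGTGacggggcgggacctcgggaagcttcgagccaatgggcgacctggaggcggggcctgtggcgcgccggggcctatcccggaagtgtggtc

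Some members belong to the mRNAs that begin with a run of pyrimidines and are controlled together by mTOR. Of the 9 listed here (Eef1a1, Eef1b2, Eef1d, Eef1g, Eef2, Eif3e, Eif3f, Eif3h and Eif4b), 8 were higher at 8C in NI and 8 in Ctrl, with median log2 fold changes of 2.83 and 2.35. The other 46 tested had medians of 1.78 and 1.44, with 27 called higher in each. Of all genes, 18.5% were called higher in NI and 22.5% in Ctrl. The exception among the 9 was Eif3f in NI (1.71 ± 0.81, adjusted p = 0.0766) and Eif4b in Ctrl.

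For comparison, 38 other translation genes were tested, and their medians were -0.14 in NI and -0.06 in Ctrl. Of these, 11 (28.9%) were higher and 9 (23.7%) lower in NI, against 18.5% and 31.4% of all genes. In Ctrl 13 (34.2%) were higher and 17 (44.7%) lower, against 22.5% and 39% of all genes. Paip1, which binds the poly(A)-binding protein, had 16.3 to 106 CPM in NI 8C (median 44.9), against 67.1 to 3349 CPM in NI 2C (median 750.1), with overlap. It fell in NI, with a log2 fold change of -4.53 ± 0.78 (adjusted p = 1.27e-05), or -3.41 without NI 2C replicate 4. In Ctrl it had 12.002 to 40.8 CPM at 8C (median 23.8), against 135 to 1044 CPM at 2C (median 697), with no overlap (-4.55 ± 0.75, adjusted p = 3.1e-06). The general poly(A)-binding gene Pabpc1 rose by 1.71 in NI and 2.60 in Ctrl, and lost the call in NI without NI 2C replicate 2 (1.4989) or replicate 4 (1.49), while its egg form Pabpc1l summed to 27 counts in NI 8C, against 88 in NI 2C (-3.96, or -5.59 without NI 8C replicate 4 and, no longer passing, -2.800 without NI 2C replicate 3), and to 5 in Ctrl 8C, against 13375 in Ctrl 2C. Of the 6 genes that phosphorylate eIF2 or restore it, 4 (66.7%) fell in NI and 5 (83.3%) in Ctrl, against 31.4% and 39% of all genes. In Ctrl the calls of Eif2ak1 and Ppp1r15b were lost without certain single libraries (largest adjusted p = 0.0719 and 0.141). The nutrient-sensing kinase Eif2ak4 fell (log2 fold change -4.04 ± 0.79 in NI, or -2.82 without NI 2C replicate 3, and -3.54 ± 0.73 in Ctrl), as did the phosphatase subunit Ppp1r15a (-2.09 ± 0.51 and -2.26 ± 0.47). Of the 8 genes that make hypusine on eIF5A or diphthamide on eEF2, 4 (50%) rose in each treatment, against 18.5% of all genes in NI and 22.5% in Ctrl, and 1, Dph6, fell in Ctrl. In NI the calls of Dhps and Dph3 were lost without certain single libraries (largest adjusted p = 0.0621 and 0.0827).

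Within a stage, the question was whether the treatments differed. No member passed in any of the 6 comparisons, nor did any other gene, so that 0% of all genes were called in each. No group of libraries lay wholly above or below another for any of the 56 members. The share of all genes that did so was 0.119% and 0.136% for KRAB against Ctrl, 0.517% and 0.297% for Ctrl against NI and 0.347% and 0.263% for KRAB against NI at 2C. At 8C it was 0.102% and 0.0812% for VP64 against Ctrl, 0.193% and 0.264% for VP64 against NI and 0.0203% and 0.0609% for Ctrl against NI. Comparisons within a stage share libraries, so their values are given side by side without being set against each other.

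At 2C, 8 members had an unadjusted p under 0.05 for KRAB against Ctrl, or 14.5% of them, against 15.6% of all genes. Eif4ebp1, with 11.3, 61.1 and 183 CPM in KRAB 2C, against 10.6, 13.4 and 66.7 CPM in Ctrl 2C, had the smallest p among the members. Its log2 fold change was 1.84 ± 0.62 (95% interval 0.55 to 3.14, adjusted p = 0.232). Eif4b had -1.08 ± 0.41 (adjusted p = 0.246) and Eef2k -2.04 ± 0.89 (adjusted p = 0.285). DESeq2 called 0 of the 55 members, while limma-voom with quality weights called 17, 8 higher and 9 lower, where it called 2562 higher and 2672 lower of 11799 genes. Eif4ebp1 and Eef2k were among the 17.

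For Ctrl against NI at 2C, 8 members had an unadjusted p under 0.05, or 14.5% of them, against 23.4% of all genes. Eif3j1 was at 87.6, 164 and 326 CPM in Ctrl 2C, against 822, 318, 619 and 898 CPM in NI 2C, a difference of -2.07 ± 0.48 (adjusted p = 0.121), and the highest Ctrl library only just reached the lowest NI one. Eif5b had -1.58 ± 0.56 (adjusted p = 0.138) and Eif2b1 2.20 ± 0.82 (adjusted p = 0.144). These 3 passed without Ctrl 2C replicate 6, together with Eif2s2, at -2.30 for Eif3j1 (adjusted p = 0.0176) and 2.27 for Eif2b1 (adjusted p = 0.0452). DESeq2 called 4 members, Eif3j1 and Eif5b lower and Eef2k and Eif2b1 higher, where it called 723 higher and 363 lower of 11799 genes. With limma-voom 20 members were called, 8 higher and 12 lower, against 3098 higher and 2864 lower among all genes. For KRAB against NI, 2 members (3.64%, against 3.12% of all genes) had an unadjusted p under 0.05, Eif5a at 1.27 ± 0.54 and Eif3j1 at -1.12 ± 0.49. Eif5b followed at -1.11 ± 0.59, and DESeq2 and limma-voom called 0.

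At 8C the intervals were narrower. For VP64 against Ctrl, 1 member (1.89%, against 3.99% of all genes) had an unadjusted p under 0.05. This was Eif3a, with 176, 273 and 324 CPM in VP64 8C, against 214, 419 and 805 CPM in Ctrl 8C. Its difference was -0.79 ± 0.33 (95% interval -1.47 to -0.10, adjusted p = 0.999), and Eef2 and Eif5 followed at -0.82 ± 0.41 and -0.84 ± 0.44. For VP64 against NI, 2 members did (3.77%, against 7.17% of all genes), Eif3a at -0.81 ± 0.33 and Eif4g2 at -0.72 ± 0.33 (adjusted p = 0.672 and 0.672), and Eif5a followed at -0.76 ± 0.43. For Ctrl against NI, 0 did, against 4.36% of all genes, and the smallest p was that of Eef1e1, at -0.72 ± 0.45 (95% interval -1.65 to 0.21), followed by Eif4e3 at 0.85 ± 0.55 and Eif3i at -0.57 ± 0.40. DESeq2 and limma-voom called 0 members in all 3. The median half-width of the 95% interval of a single gene, before any adjustment, was 1.01 for VP64 against Ctrl at 8C and 1.22 for KRAB against Ctrl at 2C on the log2 scale.

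**Figure D5:**
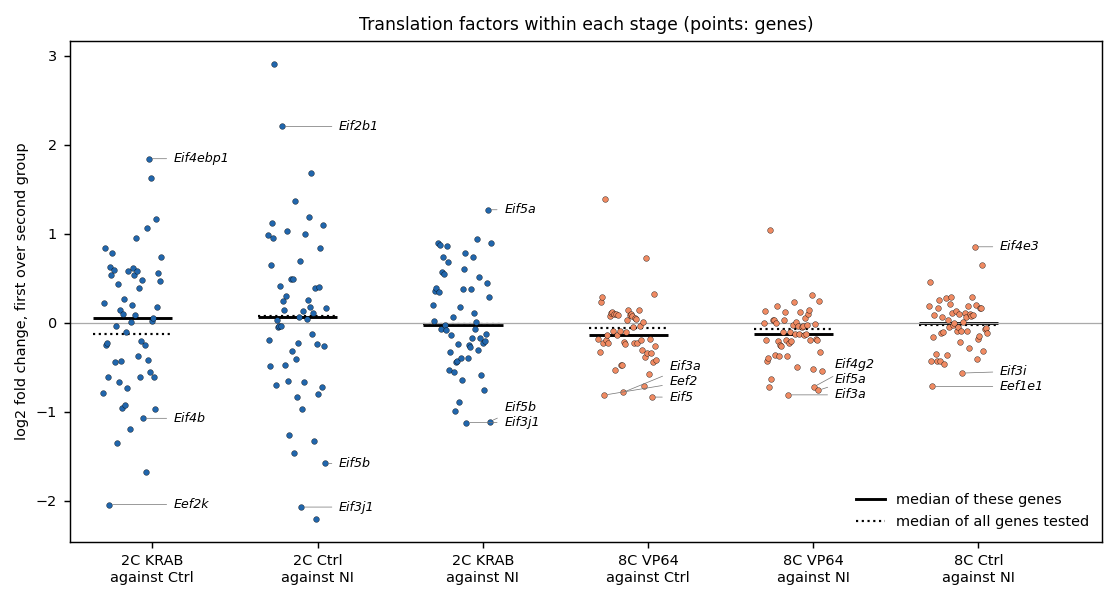
Log2 fold change of each member in the 6 comparisons within a stage, first group over second, with the 3 members of smallest p named. The bars are medians of the members (-0.14 to 0.06) and the dotted lines those of all genes tested, and no point passed the test.

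Whether the change between stages differed between Ctrl and NI was tested directly, and 0 members and 0% of all genes passed. At an unadjusted p under 0.05 there were 10 members of 55 (18.2%), against 20.4% of all genes. The smallest p-values were those of Eif3j1 (1.87 ± 0.57, adjusted p = 0.0943), Eif2b1 (-2.50 ± 0.89, adjusted p = 0.119) and Eef2k (-3.803 ± 1.38, adjusted p = 0.123), each the Ctrl minus the NI change. DESeq2 called Eif3j1 and Eif2b1, where it called 218 higher and 472 lower of 13158 genes. With limma-voom 13 members passed, against 1628 higher and 1961 lower among all genes. Without the 3 libraries that stood apart Eef2k and Eif2b1 passed, against 274 higher and 424 lower of 13110 genes. Eif3j1 alone passed without Ctrl 2C replicate 4, and all 3 passed without Ctrl 2C replicate 6.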

How the data were processed

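The authors deposited expected counts per gene symbol, and the submitters' processing notes list Bowtie2, RSEM and the build mm10. The sources used here give neither tool versions nor the annotation. Each expected count was rounded before the fits. edgeR 4.0.16 (limma 3.58.1, R 4.3.3) fitted quasi-likelihood models with TMM scaling after filterByExpr (minimum count 10, minimum total 15), with Benjamini-Hochberg adjustment at 0.05 over all genes tested. Stage comparisons and the interaction were fitted on all 36 libraries (13158 genes), and comparisons within a stage on its 17 (2C) or 19 (8C) libraries. The biological coefficient of variation was 0.703 in all libraries, 0.738 at 2C and 0.609 at 8C. CPM use the TMM scale of all 36 libraries. Paralog log2 ratios were compared by exact permutation tests (scipy 1.17.1, Python 3.11.15, pandas 2.3.3). The scripts were tested on simulated data with known changes.

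Exon coordinates and lengths come from GENCODE vM21 (GRCm38, the assembly of mm10), by symbol, and promoters from RefSeq GRCm38.p6, for 44 of the 56 members. Alternatives were DESeq2 (1.42.0) size factors, no filter on low counts, the DESeq2 Wald test, limma-voom with quality weights, a fit on only the groups compared, each library left out, pseudocounts of 0.1 and 2 CPM and, chosen after seeing the data, leaving out the 3 libraries that stood apart. No pair of libraries of a group agreed within sampling noise (lowest chi-square per degree of freedom 7.75).

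The members, the gene lists and the tests were chosen with earlier results of these data known. Genes named with values are all genes of the paralog pairs that passed the filter, up to 3 of smallest adjusted p per role and stage comparison, the 3 of smallest p in each comparison within a stage, and up to 5 other translation genes per stage comparison. Further members are named to complete their role.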

Additional observations from a re-analysis of the deposited data

Results flagged for a closer look

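The highest and lowest library of each group of 4 to 10 was set against its nearest neighbour by Dixon's test for the share of counts in members and for the paralog ratios. Of 66 groups checked, 3 had a library past the 95% limit, and chance gives about 1 in 20. The share of counts in members was 1.682% in Ctrl 8C replicate 6, the lowest of its group. The log2 ratio of Eif4e2 to Eif4e was -0.206 in the same library, the highest of its group. It was -0.346 in Ctrl 2C replicate 6, the highest of its group. Both libraries are among the 3 that stood apart.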

How the results depend on the processing

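Between stages, with 1 library left out, 32 to 37 members were called higher and 5 to 6 lower in NI, and 34 to 36 higher and 4 to 5 lower in Ctrl. Fitted on only the groups compared, 3 were lower in NI, as the calls of Eif1b, Eif3j1 and Eif5a2 were lost. Within stages, leaving out 1 library gave 0 to 4 members for Ctrl against NI at 2C, 0 to 3 for the interaction and 0 in the other comparisons. For KRAB against Ctrl limma-voom called 17. For Ctrl against NI at 2C DESeq2 called 4, limma-voom 20 and the fit without the 3 libraries that stood apart 4. For the interaction the numbers were 2, 13 and 2. Over all genes, the fit without the 3 libraries called 605 higher and 769 lower of 11844 for Ctrl against NI. For the interaction it called 274 higher and 424 lower of 13110. The paralog ratios passing numbered 0 to 13 with 1 library left out, 10 and 12 with pseudocounts of 0.1 and 2 CPM, and 12 without the 3 libraries. The cause of these differences was not tested.

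Values of members that had not passed turned sign as follows. Eif4a2 in Ctrl was -0.1012 and -0.1025 with DESeq2's size factors and test, -0.0037 on the groups alone, and from -0.1246 to 0.2551 with 1 library left out (negative without Ctrl 2C replicate 1, 2, 4 or 6). Eif4g3 in NI was -0.0914 and -0.0884 with DESeq2's size factors and test and -0.0199 with limma-voom, and Eif4g2 in NI lay between -0.5336 and 0.7407 with 1 library left out (positive without NI 2C replicate 4). The ratio of Eif4e2 to Eif4e in NI lay between -0.6234 and 0.6143 with 1 library left out (negative without NI 8C replicate 5 or 6 or NI 2C replicate 2 or 4). No paired analysis was possible because the labels give no replicate numbers that pair libraries. Depth limits Eif4e1b, Eif4ebp3 and Eef2k at 8C, with 3, 10 and 20 counts in all Ctrl libraries together.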

Other observations

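VP64 8C, like the other 8C groups, had libraries in which Eif3b, a core subunit of eIF3, was far above the rest, at 294 and 544 CPM in replicates 4 and 5.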
